A study of Mus musculus with 20 samples.

Results

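The 10 genes described here handle iron or set the level of hepcidin, the hormone that controls how much iron enters the blood. They are Hamp, Hamp2, Bmp6, Id1, Tfr2, Tfrc, Trf, Slc40a1, Fth1 and Ftl1, taken by symbol, and all 10 were found among the 57010 genes counted. RNA was taken from 2 tissues, liver and kidney, of mice of the genetically heterogeneous UM-HET3 stock, all male and aged 12 months. Osmotic minipumps placed under the skin delivered either the 7c cocktail or vehicle for 28 days, and each tissue gave 10 libraries of polyA RNA, 6 from 7c and 4 from vehicle mice. The 7c cocktail held repsox, tranylcypromine, DZNep, CHIR99021, forskolin and TTNPB at 0.1 mg/kg/day each and valproate at 1 mg/kg/day, and the vehicle was 50% DMSO and 50% PEG300, which the 7c mice received too.

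Hepcidin is made by hepatocytes, circulates, and binds ferroportin (Slc40a1), the iron exporter, which is then degraded so that iron stays inside cells. Iron loading raises BMP6, which comes from the sinusoidal endothelium of the liver and acts on hepatocyte BMP receptors, and the SMAD proteins below them switch on Hamp and other targets such as Id1. Transferrin (Trf) carries iron in plasma, TFR2 senses iron-bound transferrin on hepatocytes, the transferrin receptor TFRC takes it into cells, and ferritin, built from heavy (Fth1) and light (Ftl1) chains, stores it. Mice have a pair of hepcidin genes, and Hamp2 is the less studied copy.

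The hepcidin genes are neighbours. Hamp (ENSMUSG00000050440) lies on the minus strand of chromosome 7 at 30641766 to 30643990 and Hamp2 (ENSMUSG00000056978) on the same strand at 30621797 to 30624106 (GRCm39).

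Ferritin, ferroportin and Tfrc transcripts carry iron-responsive elements, hairpins that iron regulatory proteins bind when iron is scarce. In a 5′ UTR the bound protein blocks translation, and in the 3′ UTR of Tfrc it protects the transcript from decay, so transcript counts see the latter kind of control and not the former. A search for C, 5 bases, CAGTGN and 5 bases that pair with the first 5 (G-T pairs allowed) found 1 element in the 5′ UTR of Fth1, Ftl1 and Slc40a1 each, 4 in the 3′ UTR of Tfrc, and none in transcripts of the other 6 genes. Elements that depart from this strict pattern were not counted, so a gene may carry more. They are printed to show the bases around the loop, with the loop in capitals and only the first Tfrc element given. The search fixed every base of the loop but the last, so the loops are alike by that choice.
Fth1: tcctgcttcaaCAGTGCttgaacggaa
Ftl1: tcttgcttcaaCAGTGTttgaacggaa
Slc40a1: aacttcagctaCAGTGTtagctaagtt
Tfrc: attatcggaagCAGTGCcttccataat
These 27 bases lie at chr19:9960097-9960123 (plus strand), chr7:45109204-45109230 (minus), chr1:45964626-45964652 (minus) and chr16:32450038-32450064 (plus) in GRCm39.

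Total counts were 28383359 to 34153084 in the livers and 27855849 to 64872451 in the kidneys, and all 6 7c livers had smaller totals than all 4 vehicle livers. Levels are given as CPM, the share of a library's counts on a fixed total, scaled within each tissue by edgeR's TMM factors. A gene was tested where at least 10 reads were counted in at least 50% of the samples. All 12 hepatocyte markers passed this filter in liver, and all 8 proximal tubule markers did in kidney. Some libraries stood apart. The liver of 7c replicate 6 held 630 CPM of summed skeletal muscle markers, against 0.328 to 1.79 CPM in the other 9 livers. It also held 23.7 CPM of summed thick limb, distal tubule and collecting duct markers, against 0 to 0.578 CPM. Both of these lists contain Pvalb. Its summed sinusoidal endothelial (196 CPM) and macrophage (122 CPM) markers were the lowest of the livers. The kidneys of 7c replicate 5 and vehicle replicate 2 held the most cytosolic ribosomal protein RNA.

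Hamp was abundant and even across the livers. The 4 vehicle livers held 476, 591, 670 and 670 CPM, and the 6 7c livers held 427 to 705 CPM with a median of 549. The groups overlapped almost entirely, and 1 of the 6 7c livers lay above and 1 below the vehicle range. The log2 fold change was -0.11 ± 0.14 (SE), with a 95% interval from -0.40 to 0.19 (edgeR quasi-likelihood test, adjusted p = 0.9996).

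Hamp2 varied far more than Hamp between mice. In the vehicle livers it stood at 254, 256, 2.96 and 2.95 CPM for replicates 1 to 4, and in the 7c livers at 11.6, 159, 1.76, 230, 228 and 331 CPM for replicates 1 to 6. The values fell into separate sets, with 4 livers at 1.76 to 11.6 CPM and 6 livers at 159 to 331 CPM, and none between. Each set held both treatments: 2 7c and 2 vehicle livers in the low set, and 4 and 2 in the high set. The lowest of the high set was 13.7 times the highest of the low set, and the extremes of all 10 livers were 188-fold apart, against 1.65-fold for Hamp.

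With such a spread the 7c comparison had little power for Hamp2. Its log2 fold change was 0.31 ± 1.23 (SE) with a 95% interval from -2.33 to 2.96 (edgeR, adjusted p = 0.9996), so neither a large rise nor a large drop could be seen or set aside. In the reference transcripts Hamp and Hamp2 share 6.27% of the 50-base windows of Hamp and 10.2% of those of Hamp2, and none of 100 bases, so part of the short reads cannot be told apart. The sum of both genes ran from 544 to 933 CPM in 7c livers and from 673 to 847 CPM in vehicle livers. Because Hamp2 fell into separate sets, its relation to Hamp was taken only over the 6 livers of the high set, where Pearson's r was 0.158 (exact permutation p = 0.783, adjusted 0.855 over 12 pairs) and Spearman's rho 0.486 (exact permutation p = 0.356, adjusted 0.533). The low set of 4 livers was too small for the same measure.

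**Figure D1:**
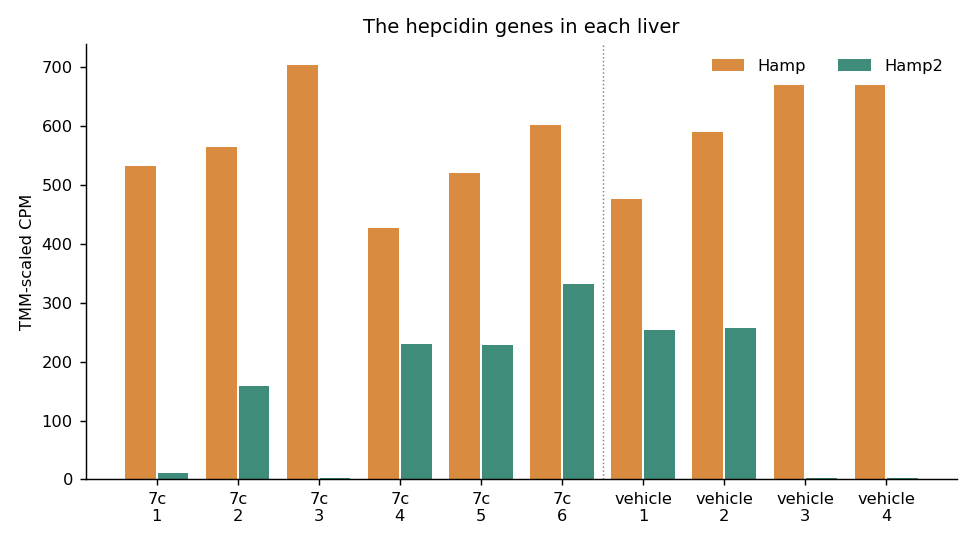
Bars give TMM-scaled CPM of Hamp and Hamp2 in each of the 6 7c and 4 vehicle livers, numbered by replicate. Hamp lies between 427 and 705 CPM in every liver, while Hamp2 is at 159 CPM or more in 6 livers and at 11.6 CPM or less in 4.

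In kidney the hepcidin genes were near the limit of detection. Hamp counts were 33, 24, 4 and 11 in the vehicle kidneys and 0, 0, 0, 6, 12 and 10 in the 7c kidneys, replicates in order. In the 3 kidneys at 0 a count of 0 allows up to 0.0454, 0.0900 and 0.0802 CPM (3 counts, counting error only). The groups overlapped, with a mean of 0.506 ± 0.331 CPM in vehicle (SD, n = 4) and 0.129 ± 0.157 CPM in 7c kidneys (SD, n = 6). The log2 fold change was -2.01 ± 0.99 (SE), with a 95% interval from -4.15 to 0.14 (edgeR, unadjusted p = 0.0641, adjusted p = 0.997). Hamp passed the filter in 5 of the 10 fits that left out 1 kidney, with log2 fold changes from -2.35 to -1.70. The estimate was -3.03 with limma-voom (adjusted p = 0.985) and -4.13 with the replicate number as a block (edgeR, adjusted p = 0.9996).

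Most hepatocyte markers, like Hamp, had lower estimates with 7c in kidney, and none passed the threshold. Albumin (Alb) stood at 8.69 to 30.7 CPM in the 7c kidneys and at 22.8 to 44.0 CPM in the vehicle kidneys. Of the 12 hepatocyte markers 10 had a lower estimate with 7c, with a median log2 fold change of -1.01. At an unadjusted p under 0.05 (edgeR) there were 6 of the 12, beside 2.61% of all genes. None of the 12 was at 0 in all kidneys, and their summed level overlapped, at 190 to 489 CPM with 7c and 291 to 471 CPM with vehicle. This sum did not follow Hamp in every kidney: 7c replicate 2 had 0 Hamp counts at 451 CPM of these markers, and vehicle replicate 1 had the most Hamp at 375 CPM. Alb alone was lowest in the 3 kidneys with 0 Hamp counts (8.69, 11.8 and 10.9 CPM). It was highest, as Hamp was, in vehicle replicate 1 (44.0 CPM). Vehicle replicate 3 went the other way, with 4 Hamp counts at 32.7 CPM of Alb. Per 10000 Alb counts the kidneys held 0 to 276 Hamp counts with 7c and 32.7 to 196 with vehicle. Fat cell markers also differed between these kidneys. Of 8 fat cell markers 7 were tested, and all 7 had a higher estimate with 7c, with a median log2 fold change of 2.14. Each was at an unadjusted p under 0.05 (edgeR), beside 2.61% of all genes, and 0 passed the threshold. None of the 8 was at 0 in all kidneys, and their summed level did not overlap, at 58.6 to 171 CPM with 7c and 37.4 to 49.6 CPM with vehicle. F2 and Mup3 of the hepatocyte list and Cidec of the fat list are genes that the paper called in these same kidneys. The lists are therefore not independent of these data. The part of either marker list in the Hamp values was not tested. Hamp2 had 5 counts over all 7c kidneys and 12 over all vehicle kidneys, did not pass the filter, and differed by -0.062 CPM (exact permutation test over 210 splits, two-sided p = 0.133).

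Bmp6 and Id1, the members on the BMP side of the pathway, gave no detectable difference with 7c. Bmp6 was low in liver, at 3.43, 5.96, 6.57 and 6.67 CPM in the vehicle livers and 3.57 to 9.80 CPM (median 5.64) in the 7c livers, with a log2 fold change of 0.09 ± 0.28 (SE; edgeR, adjusted p = 0.9996). In these livers 7 of 8 sinusoidal endothelial markers had a lower estimate with 7c (median log2 -0.13), as did 8 of 8 markers of endothelium in general (median -0.16), with 0 past the threshold in either list. Their summed levels overlapped, at 196 to 391 CPM with 7c and 282 to 355 CPM with vehicle for the former and at 139 to 249 and 199 to 253 CPM for the latter. None of the markers was at 0 in all livers, and their part in the Bmp6 values was not tested. In kidney Bmp6 stood at 72.6, 59.7, 78.5 and 73.8 CPM with vehicle and at 54.3 to 72.6 CPM (median 68.0) with 7c. Only 2 of the 6 7c kidneys lay below the vehicle range, and the log2 fold change was -0.13 ± 0.12 (SE; adjusted p = 0.997).

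Id1, a transcription inhibitor induced by BMP and SMAD signals, was at 3.23, 1.95, 2.67 and 2.05 CPM in the vehicle livers and at 0.939 to 4.19 CPM (median 2.34) in the 7c livers. The log2 fold change of -0.01 had a 95% interval from -0.82 to 0.81. In kidney Id1 was at 16.7, 38.04, 13.3 and 10.3 CPM with vehicle and at 13.3 to 30.5 CPM (median 20.5) with 7c, a log2 fold change of 0.09 ± 0.35 (SE; edgeR, adjusted p = 0.997). The kidney of vehicle replicate 2 held the highest value of all 10. In these whole tissues a lower count can come from fewer cells of a type or from less RNA per cell, which cannot be told apart.

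Among the receptors and the carrier, Trf in liver came closest to a separation of the groups. It was the most abundant of the 10 genes there, at 19819, 19668, 16781 and 18684 CPM in the vehicle livers and 17587 to 22765 CPM (median 21775) in the 7c livers. In 5 of the 6 7c livers it lay above the vehicle range, while 7c replicate 2 lay within it. The log2 fold change was 0.18 ± 0.10 (SE), with a 95% interval from -0.04 to 0.40 (edgeR, unadjusted p = 0.0985, adjusted p = 0.9996). Tfr2 stood at 443, 482, 410 and 398 CPM with vehicle and at 428 to 549 CPM (median 462) with 7c in liver, a log2 fold change of 0.13 ± 0.10 (SE). Trf in kidney was at 20.3 to 39.7 CPM over both groups, a log2 fold change of 0.14 ± 0.18 (SE). Tfr2 there was at 0.540 to 1.20 CPM, with a log2 fold change of -0.41 ± 0.32 (SE; edgeR, adjusted p = 0.997). For Tfr2, 3 of the 6 7c kidneys lay below the vehicle range and 1 above.

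Tfrc was uneven between livers. The vehicle livers held 21.4, 12.8, 34.4 and 12.2 CPM, and the 7c livers 9.96 to 22.8 CPM with a median of 12.9. The highest value, in vehicle replicate 3, was 3.45 times the lowest, and 3 of the 6 7c livers lay below the vehicle range. The log2 fold change was -0.48 ± 0.31 (SE), with a 95% interval from -1.14 to 0.19 (edgeR, adjusted p = 0.9996), and it ranged from -0.66 to -0.09 when 1 liver was left out. In kidney Tfrc was steadier, at 39.5 to 65.3 CPM, with a log2 fold change of -0.03 ± 0.16 (SE).

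Slc40a1, the exporter that hepcidin removes, gave close values in nearly all livers. The vehicle livers held 128, 185, 126 and 140 CPM, of which replicate 2 stood highest of all 10, and the 7c livers held 130 to 153 CPM, all inside the vehicle range. The log2 fold change was -0.06 ± 0.11 (SE) in liver (95% interval -0.30 to 0.18) and -0.18 ± 0.15 (SE) in kidney (95% interval -0.51 to 0.15).

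**Figure D2:**
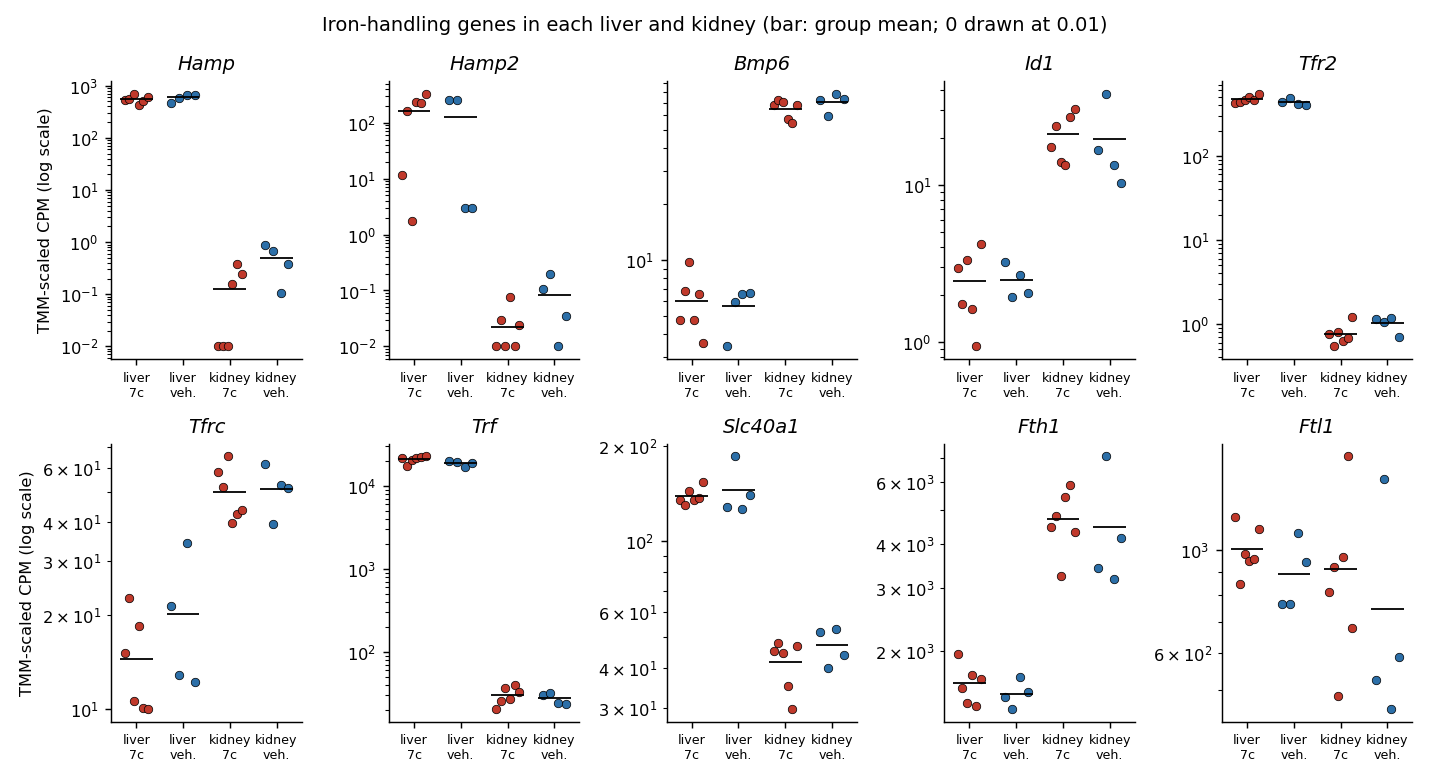
Each point is 1 library, with TMM-scaled CPM on a log axis for the 10 genes in 7c (red) and vehicle (blue) livers and kidneys, a black bar at each group mean, and values of 0 drawn at 0.01. The treatments overlap in every panel, and the kidney Hamp panel shows the 3 7c kidneys at 0.

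The ferritin genes were the most abundant members in kidney, and they varied together there. Fth1 was at 3431, 7097, 3192 and 4161 CPM in the vehicle kidneys and 3260 to 5894 CPM (median 4652) in the 7c kidneys. Ftl1 was at 526, 1426, 455 and 590 CPM with vehicle and 486 to 1594 CPM (median 866) with 7c. For both genes vehicle replicate 2 and 7c replicate 5 were the highest pair. The log2 fold changes with 7c were 0.08 ± 0.23 (SE) for Fth1 and 0.28 ± 0.36 (SE) for Ftl1 (edgeR, adjusted p = 0.997 for both). Without vehicle replicate 2 the Ftl1 estimate was 0.80, and without 7c replicate 5 it was 0.05.

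Over the 10 kidneys the log2 CPM of Fth1 and Ftl1 gave Pearson's r = 0.957 (permutation p = 4e-05, adjusted 0.00048 over 12 pairs) and Spearman's rho = 0.988 (permutation p = 1e-05, the smallest that 100000 resamples can give, adjusted 0.00012). Without the 2 kidneys farthest from the median of Fth1, r was 0.945 (n = 8, exact permutation p = 4.96e-05). The 80 cytosolic ribosomal protein genes moved with them: their summed level was 31943 CPM in vehicle replicate 2 and 32573 CPM in 7c replicate 5, against 13999 to 22088 CPM in the other 8 kidneys. Over those 8 kidneys r of Fth1 and Ftl1 was 0.967 (exact permutation p = 0.000198), a choice made after seeing the data. Among the 8, the ribosomal sum and Ftl1 were both lowest in vehicle replicate 3 (13999 and 455 CPM). Both were highest in 7c replicate 4 (22088 and 968 CPM). This subset therefore cannot separate the ferritins from the ribosomal protein genes. The same 2 kidneys also held the most summed proximal tubule markers, at 65492 and 73575 CPM against 37172 to 51635 CPM, the most summed macrophage markers, at 155 and 152 CPM against 96.1 to 126 CPM, and the fewest genes with counts, at 21882 and 21933 against 22339 to 25458. Their summed hepatocyte markers were also the highest, at 471 and 489 CPM against 190 to 451 CPM, and those of the thick limb, distal tubule and collecting duct the lowest, at 3861 and 3804 CPM against 4198 to 5213 CPM. The part of these measures in the ferritin values was not tested.

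**Figure D3:**
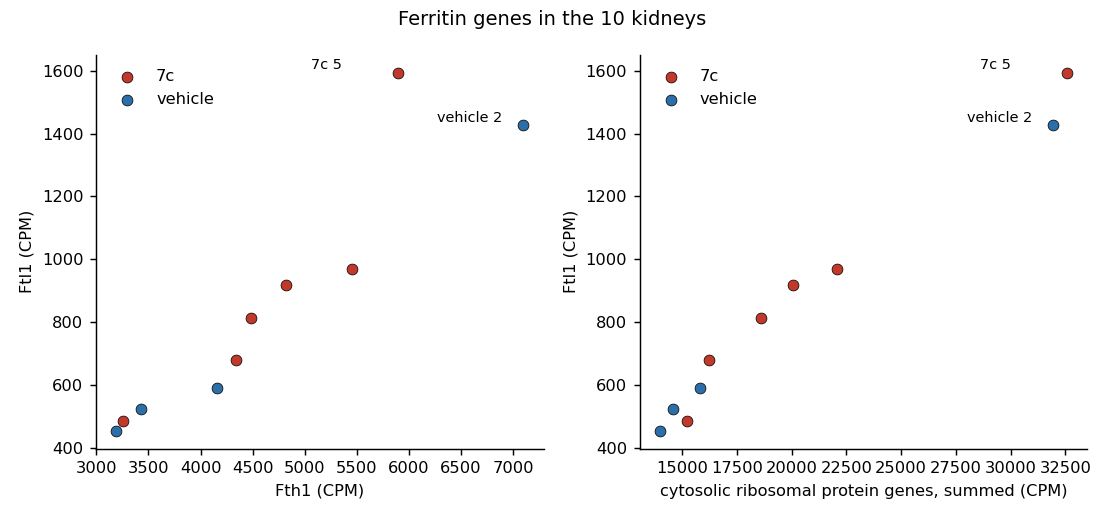
Points are the 10 kidneys (7c red, vehicle blue), with Ftl1 CPM against Fth1 CPM on the left and against the summed CPM of 80 cytosolic ribosomal protein genes on the right. Vehicle replicate 2 and 7c replicate 5 lie at the upper right of both panels, and the other 8 kidneys line up below them.

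In liver the ferritins differed less between mice. Fth1 was at 1473, 1365, 1680 and 1527 CPM with vehicle and 1392 to 1956 CPM (median 1613) with 7c, and Ftl1 at 764, 765, 1089 and 946 CPM with vehicle and 847 to 1180 CPM (median 970.0) with 7c. The log2 fold changes were 0.10 ± 0.11 (SE) and 0.17 ± 0.13 (SE), with 2 of the 6 7c livers above the vehicle range for each. Fth1 and Ftl1 correlated over the 10 livers with r = 0.709 (permutation p = 0.0213, adjusted 0.128) and rho = 0.564 (permutation p = 0.0936, adjusted 0.225), and r was 0.410 without the 2 farthest livers, so the relation did not pass the correction and was smaller without them. Ftl1 shares 25.6% of its 100-base windows with Ftl1-ps1, so their reads are uncertain.

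Read as a set, none of the 10 genes passed the threshold with 7c. In liver 0 of 10 did, against 0.00666% of the 15012 genes tested, and in kidney 0 of the 9 tested, against 0% of 17749. By an unadjusted p under 0.05 the counts were 565 genes in liver and 463 in kidney, with 0 members in either. DESeq2 and limma-voom also called 0 members in both tissues. No member had all 6 7c values outside the vehicle range in either tissue, whereas 0.719% of the genes in liver and 0.716% in kidney did. The estimates of the members were positive for 6 and negative for 4 in liver, with a median log2 fold change of 0.10 against 0.002 for all genes, and positive for 4 and negative for 5 in kidney, with a median of -0.03 against -0.01.

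The difference between the tissues in the response to 7c was tested as an interaction (liver effect minus kidney effect). Of the 9 members tested, 0 passed the threshold, against 0.00706% of 14163 genes. Hamp gave the largest estimate, 1.98 ± 0.72 (SE) on the log2 scale (edgeR, unadjusted p = 0.0115, adjusted p = 0.9999), and its kidney counts are given above. That SE is smaller than the 0.99 of the kidney effect alone (edgeR, unadjusted p = 0.0641). The interaction fit shares 1 dispersion per gene between the tissues, so its p may understate the spread in kidney. Tfr2, whose kidney counts were 18 to 50, gave 0.53 ± 0.23 (SE; unadjusted p = 0.0342, adjusted p = 0.9999).

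**Figure D4:**
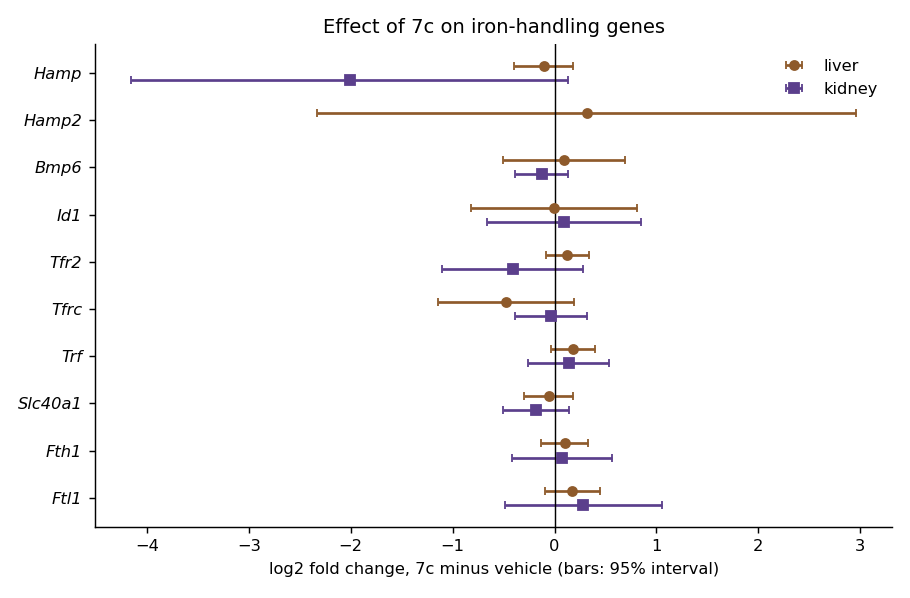
Points give the log2 fold change of 7c against vehicle for each gene in liver (circles) and kidney (squares), with bars for the 95% interval from edgeR; Hamp2 in kidney was not tested. Every interval spans 0, and the widest are Hamp2 in liver (-2.33 to 2.96) and Hamp in kidney (-4.15 to 0.14).

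Liver and kidney of vehicle mice differed in 9 of the 10 genes. They were compared on 1 common TMM scale, where 25.7% of 17245 genes were higher in liver and 27.7% higher in kidney at an adjusted p under 0.05. Of the members 6 were higher in liver and 3 in kidney, and 1 of the 6, Hamp2, passed the filter through liver alone, since no vehicle kidney held 10 reads of it. With total counts only, which lowers all log2 differences by a median of 0.60, or with RLE scaling, the split was 5 and 4, since Ftl1 dropped out and Tfrc came in, and no member changed direction. The split over all genes was then 2399 higher in liver and 8160 in kidney with total counts only, and 4439 and 4776 with TMM. Hamp was at 597, 760, 824 and 825 CPM in liver and at 0.694, 0.546, 0.086 and 0.310 CPM in kidney, a log2 difference of 10.82 ± 0.48 (SE; edgeR, adjusted p = 1.31e-08). Hamp2 had 7687, 8952, 104 and 101 counts in the vehicle livers and 4, 7, 0 and 1 in the vehicle kidneys, so a gene that passed as it did had to differ and its fitted log2 difference is not given. Its call (edgeR, adjusted p = 0.00053) was lost under limma-voom (adjusted p = 0.334). Trf differed by 10.04 ± 0.26 (SE; adjusted p = 6.73e-10) and Tfr2 by 9.34 ± 0.23 (SE; adjusted p = 5.22e-10), and every liver lay above every kidney for these 4 genes.

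Slc40a1 was 4.76-fold higher in liver, at 155 to 238 CPM against 32.6 to 42.5 CPM in kidney (adjusted p = 9.49e-07). The ferritin chains went in opposite directions. Ftl1 was at 958 to 1341 CPM in liver and 365 to 1165 CPM in kidney, a log2 difference of 0.87 ± 0.34 (SE; adjusted p = 0.0482), and the groups overlapped through the kidney of replicate 2. That call was lost under RLE scaling (adjusted p = 0.0638), with total counts only, and without replicate 1, 3 or 4. Fth1 was higher in kidney, at 2566 to 5798 CPM against 1755 to 2067 CPM, a log2 difference of -0.94 ± 0.25 (SE; adjusted p = 0.00818).

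Bmp6 and Id1 were both higher in kidney. Bmp6 was at 48.8 to 63.1 CPM in kidney and 4.30 to 8.21 CPM in liver, 8.12-fold apart (log2 -3.02 ± 0.21, SE; adjusted p = 4.53e-07). Id1 was at 8.34 to 31.1 CPM in kidney and 2.51 to 4.05 CPM in liver, 5.15-fold apart (log2 -2.36 ± 0.40, SE; adjusted p = 0.000487). Tfrc had a lower estimate in liver, -0.72 ± 0.30 (SE) on the log2 scale, and did not pass (edgeR, adjusted p = 0.0647). It passed with the replicate number as a block (-0.83, adjusted p = 0.0172), which treats a liver and a kidney of 1 number as 1 mouse, and in the 7c mice (6 livers against 6 kidneys), where the log2 difference was -1.18 (adjusted p = 0.000163). Both tissues came from the same mice, but the labels do not say that a number names a mouse.

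Per kilobase of exon, which allows levels of different genes to be compared, the order in vehicle liver was Trf (4119 CPM per kb), Hamp (845), Ftl1 (829), Fth1 (536), Hamp2 (268), Tfr2 (110), Slc40a1 (19.3), Tfrc (3.56), Bmp6 (1.80) and Id1 (1.74). The ranges of Hamp and Ftl1 overlapped, as did those of Bmp6 and Id1 and those of Hamp2 with its neighbours on both sides. In vehicle kidney the order was Fth1 (1029 CPM per kb), Ftl1 (453), Bmp6 (14.7), Id1 (8.96), Tfrc (5.87), Slc40a1 (4.04), Trf (3.91), Hamp (0.460), Tfr2 (0.167) and Hamp2 (0.111). There Fth1 and Ftl1, Bmp6 and Id1, Id1 and Tfrc, Slc40a1 and Trf, and the last 3 genes overlapped with their neighbours. With the longest transcript as the length, Ftl1 (1147) stood above Hamp (1092) and Id1 (2.34) above Bmp6 (1.97) in liver, and Slc40a1 (9.70) above Tfrc (7.40) in kidney.

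**Figure D5:**
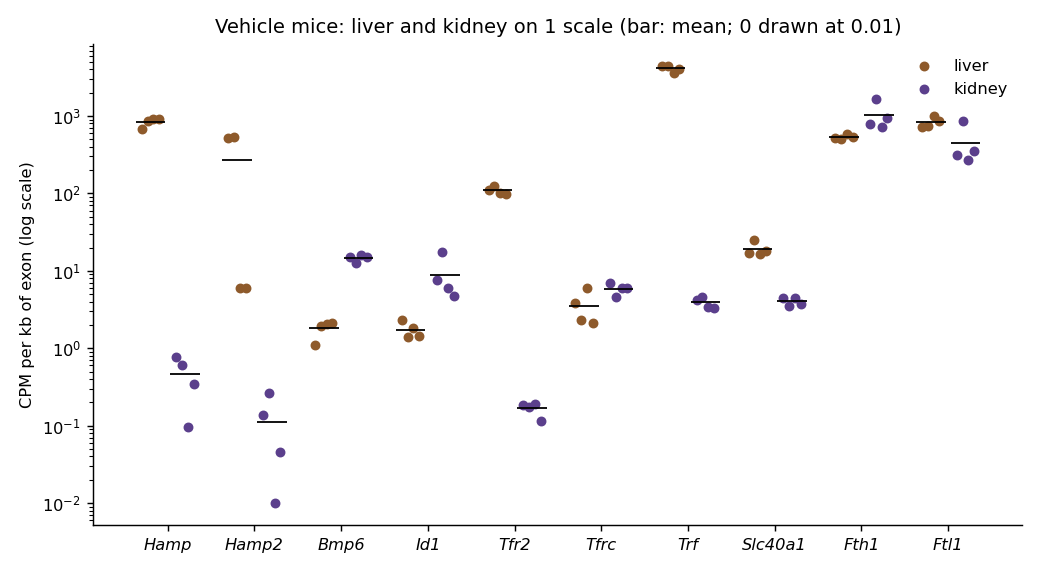
Points give CPM per kilobase of exon (log axis, 1 common scale) in the 4 vehicle livers (brown) and 4 vehicle kidneys (purple), with a black bar at each mean and 0 drawn at 0.01. Hamp, Hamp2, Tfr2, Trf and Slc40a1 lie higher in every liver, Bmp6, Id1 and Fth1 higher in every kidney, and Ftl1 and Tfrc overlap.

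Of the other pairs tested over the livers, Tfrc and Slc40a1 went in opposite directions by rank, with Spearman's rho = -0.830 (permutation p = 0.00454, adjusted 0.0272 over 12 pairs) and Pearson's r = -0.574 (permutation p = 0.0743, adjusted 0.178). Without the 2 livers farthest from the median of Tfrc, r was -0.417 and rho -0.690 (exact permutation p = 0.0694, adjusted 0.254), so the rank relation no longer passed, while its estimate stayed negative. With each treatment group centred, rho over the 10 livers was -0.830 (permutation p = 0.00419, adjusted 0.0251). In kidney the same pair gave r = 0.638 (permutation p = 0.0449, adjusted 0.178) and rho = 0.636 (permutation p = 0.055, adjusted 0.165), and r was 0.537 without the 2 farthest kidneys. Hamp and Bmp6 over livers gave r = 0.609 (permutation p = 0.0619, adjusted 0.178) and rho = 0.648 (permutation p = 0.0493, adjusted 0.165), and r was 0.489 without the 2 farthest livers. None of these passed the correction by Pearson's r, and the remaining 6 pairs had adjusted p from 0.346 to 0.98 by Pearson's r. Among them, Bmp6 and Id1 over the kidneys gave r = -0.470 (permutation p = 0.173, adjusted 0.346). Without the 2 kidneys farthest from the median of Bmp6, r was -0.771 (exact permutation p = 0.0201, adjusted 0.111).

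Genes whose log2 CPM followed a member most closely over the 10 livers, among 15012, are given as a description with no test. For Hamp they were Gm13493 (r = 0.946), Rpl23a-ps3 (0.944) and Cdkn1c (0.899). For Bmp6 they were 9530046B11Rik (0.934), Gnas (0.931) and Ing5 (0.930), for Id1 Hspb6 (0.910), Mrps18c (0.879) and Gsr (0.869), and for Tfrc S1pr1 (0.926), Tfdp1 (0.917) and Gfpt1 (0.906). These points share libraries and mix both treatments.

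The wider pathway was read through 7 lists of 131 genes, of which 129 were found. With 7c 0 of the 115 tested in liver and 0 of the 116 tested in kidney passed the threshold (edgeR), with median log2 fold changes of 0.005 and -0.02. At an unadjusted p under 0.05 there were 9 in liver (7.83%, beside 3.76% of all genes) and 3 in kidney (2.59%, beside 2.61%). Of the 9 in liver, 4 were among the 23 tested receptors, ligands and effectors of BMP and SMAD signalling. In the interaction 0 of 108 passed, with 5 at an unadjusted p under 0.05 (4.63%, beside 2.49%). Only 3 genes had all 6 7c livers above the vehicle range, 2.61% of the 115 beside the 0.719% of all genes, and they were chosen after their values were seen. Smad1, which carries the BMP signal to the nucleus, was at 15.5 to 19.2 CPM with 7c and 14.0 to 15.1 CPM with vehicle. Lcn2, a siderophore-binding protein of acute inflammation, was at 1.88 to 4.31 CPM against 1.20 to 1.52 CPM, and Ftl1-ps1 at 20.9 ± 2.66 CPM (SD, n = 6) against 14.8 ± 3.79 CPM (SD, n = 4). Their unadjusted p values were 0.0333, 0.00327 and 0.00841 (edgeR, adjusted p = 0.9996 each). In kidney no gene of the lists had separate groups.

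Between the vehicle tissues 52 of 119 tested pathway genes were higher in liver (43.7%, beside 25.7% of all genes) and 30 in kidney (25.2%, beside 27.7%). With total counts only they were 37 and 47, where 13.9% of all genes were higher in liver and 47.3% in kidney. Of the 82 called, 3 (Furin, Herc2 and Slc46a1) changed direction under that scaling. The called genes included 6 of the 52 and 4 of the 30 that passed the filter only through the tissue where they were higher, beside 391 of the 4439 and 1121 of the 4776 over all genes. The values below are log2 differences, liver minus kidney. Among the receptors, ligands and effectors of BMP signalling, 11 of 25 were higher in liver, led by Tmprss6 (log2 10.55), the protease that restrains hepcidin, Hjv, the hemojuvelin co-receptor, and Bmp2 (4.27), and 6 in kidney, led by Bmp7 (-5.23), Sostdc1, a BMP antagonist, and Bmp4 (-2.34). Hjv had at most 4 counts in a vehicle kidney and 2590 to 3978 in the livers, and Sostdc1 had 0 counts in the vehicle livers and up to 1806 in a kidney, so each passed the filter through 1 tissue and no log2 value is given. With total counts only 9 were higher in each tissue. Of 8 further BMP targets Atoh8 was higher in liver (3.54), and Id4 (-3.21) and Dkk3 (-1.94) in kidney, against 1 and 4 with total counts only. Of 26 importers and exporters 11 were higher in liver, led by the haem and haemoglobin binders Hpx (11.39) and Hp (10.28) and the reductase Steap4 (6.23), and 12 in kidney, led by the endocytic receptors Lrp2 (-10.11) and Cubn (at most 4 counts in a vehicle liver, and passing through kidney alone) and by Slc22a17 (-4.67), and with total counts only the split was 10 and 13.

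Of 12 genes of iron sensing and ferritin turnover, Ncoa4 (1.38), which takes ferritin to the lysosome, Ireb2 (1.00), an iron regulatory protein, and Herc2 (0.44) were higher in liver, and Pcbp3 (-4.71) and Pcbp4 (-1.41) in kidney. With total counts only 1 was higher in liver and 6 in kidney, Ireb2 (0.38, edgeR, adjusted p = 0.168) and Herc2 (-0.18, adjusted p = 0.449) being lost. Of 28 genes of haem and mitochondrial iron 11 were higher in liver, led by Alas2 (5.57), Blvrb (2.96) and Fech (1.15), and 7 in kidney, led by Blvra (-1.89), Lyrm4 (-1.11) and Abcb8 (-0.81), a split that turned to 6 and 13 with total counts only. Of 7 hypoxia genes Epas1 (0.85) and Arnt (0.85) were higher in liver and Egln1 (-0.51) in kidney, against 0 and 2 with total counts only. All 13 tested genes of the interleukin 6 and inflammation list were higher in liver, led by Orm1 (11.21), Fga (8.45) and Fgb (11.72), beside the 25.7% of all genes, and 4 of the 13 passed the filter through liver alone. With total counts only 10 of the 13 were called, since Socs3 (0.84), Il6st (0.11) and Il1b (1.29) did not pass.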

How the data were processed

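Counts per gene were read as deposited: per the labels and the study's methods, the authors aligned reads of stranded polyA libraries with STAR 2.7.11b to GRCm39 and counted them with featureCounts 2.0.6. The annotation release, strand setting and treatment of reads with several matches are not given in the sources used here. The filter kept a gene if 50% or more of the libraries in the fit had 10 reads or more on it. Genes were tested in edgeR 4.0.16 (TMM, quasi-likelihood F-test, Benjamini-Hochberg over all genes tested, threshold 0.05) in R 4.3.3, each tissue on its own. The interaction used all 20 libraries and genes that passed in both tissues. The fits were checked on simulated counts. Standard errors are the log2 fold change over the root of F, and intervals are at 95%. Log2 CPM for correlations used a prior count of 2, and permutation tests were two-sided with 100000 resamples or exact below 10 values. The BH correction ran over 12 pairs, in R and scipy.

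The members, lists, pairs and marker genes were chosen with earlier results of these data known. All 10 members are named, at most 3 genes per list and direction past the threshold by smallest p, and for Hamp, Id1, Bmp6 and Tfrc the 3 genes of highest r. Within a tissue each library was taken as 1 animal. Livers and kidneys came from the same mice, per the study's text, but only the replicate number could tie a liver to a kidney, so the comparison of the tissues had no block and treats them as separate mice. No 2 libraries of a tissue agreed within sampling noise (lowest chi-square per gene 23.2). Alternatives were RLE scaling, DESeq2 1.42.0, limma-voom 3.58.1, a likelihood ratio test, no filter, a replicate block, 1 fit for both tissues and leaving out each replicate number. Scaling by total counts only was added after seeing the data. Gene positions and lengths came from GENCODE vM39, which matched 56310 of 57010 identifiers. Promoter sequence is not reported here.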

Additional observations from a re-analysis of the deposited data

Results flagged for a closer look

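In 2 of 40 groups (10 genes, 2 tissues, 2 treatments) the highest or lowest sample stood apart from the rest by Dixon's gap ratio on log2 CPM, and chance flags about 1 group in 20. Trf in the 7c livers was lowest in replicate 2, at 17587 CPM, with a gap of 0.634 of the group's range. Bmp6 in the vehicle livers was lowest in replicate 1, at 3.43 CPM, with a gap of 0.831 of the range. No member differed between liver and kidney in its response to 7c past the threshold.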

How the results depend on the processing

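No member passed the threshold with 7c or in the interaction under any alternative run. Between the vehicle tissues 9 members passed, and 8 to 10 did under the alternatives (8 to 9 with 1 replicate left out). Ftl1 was lost with RLE scaling, total counts only and without replicate 1, 3 or 4, Hamp2 was lost with limma-voom, and Tfrc passed in 9 alternatives. The cause was not tested.

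Counts over all genes moved. In liver, with 1 called, DESeq2 called 6, the likelihood ratio test 7, no filter 4, both tissues in 1 fit 4 and the replicate block 0, and 0 to 2 were called with 1 replicate left out. In kidney, with 0 called, DESeq2 called 18, limma-voom 2, the likelihood ratio test 14, no filter 3 and both tissues in 1 fit 18, and 0 to 3 with 1 left out. In the interaction, with 1 called, DESeq2 called 14, limma-voom 0, the likelihood ratio test 22, no filter 7 and the replicate block 0, and 0 to 6 with 1 left out.

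Some uncalled estimates changed sign. In liver these were Id1 with no filter (0.0054) and Hamp2 with the replicate block (-0.53). In kidney the block gave 0.059 for Tfrc, -0.024 for Trf and -0.052 for Id1. In the interaction Fth1 was -0.044 with limma-voom, -0.048 with the block and -0.047 with total counts only, and Trf -0.020 with total counts only. With 1 replicate left out, the liver log2 fold changes ran from -0.088 to 0.90 for Hamp2, -0.12 to 0.086 for Slc40a1, -0.093 to 0.21 for Bmp6 and -0.22 to 0.16 for Id1. In kidney they ran from -0.13 to 0.065 for Tfrc, -0.057 to 0.39 for Fth1 and -0.12 to 0.64 for Id1. In the interaction they ran from -0.0033 to 0.35 for Slc40a1, -0.33 to 0.21 for Fth1, -0.68 to 0.18 for Ftl1, -0.072 to 0.11 for Trf and -0.73 to 0.15 for Id1. Pearson's r of Bmp6 and Id1 in liver was 0.233 without the 2 farthest livers and -0.326 with them, and that of Id1 and Smad7 was -0.026 with the groups centred.

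The numbers shared by libraries were not taken as pairs: liver and kidney of 1 number correlated at 0.011 to 0.259, with 7 of 10 over 0.1 and 8 of 10 highest with their own number, and 7c and vehicle libraries of 1 number in 0 of 4 liver and 1 of 4 kidney pairs. Between tissues, which came from the same mice, the replicate block called 10 members and 8744 genes, Tfrc being the member it added. The low kidney counts of Hamp, Hamp2 and Tfr2 and the number of vehicle mice limit what could be detected.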
